A study of Homo sapiens with 9 samples.

Results

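The 10 genes described here, ASNS, CHAC1, TRIB3, SESN2, PSAT1, PHGDH, PSPH, SHMT2, SLC7A11 and DDIT4, belong to the amino acid response that is driven by the transcription factor ATF4. They were chosen by symbol, with earlier results of these data known. All 10 were found once each among the 63657 genes of the expression table. RNA was measured in cells of the established human breast cancer line MDA-MB-231, which is triple-negative, with a control short hairpin RNA (shControl, 2 libraries) or a hairpin that depletes LOXL2 (shLOXL2, 2 libraries). LOXL2 is a lysyl oxidase-like enzyme, and the series as a whole asked what it and the oxidised histone mark H3K4ox do to chromatin. For these libraries the labels do not name the hairpin sequence, the time of depletion or the medium, and they do not say that replicates came from separate cultures, so that p-values measure only the spread between these libraries, which may be technical. The ChIP-seq and ATAC-seq samples of the series were not used here.

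When amino acids run short, uncharged tRNAs activate the kinase GCN2, which phosphorylates the translation factor eIF2alpha. PERK in the endoplasmic reticulum, PKR and HRI phosphorylate the same site under other stresses. General translation then slows, while ATF4 mRNA is translated more, so that ATF4 mRNA alone does not report ATF4 activity. ATF4 pairs with C/EBP factors on a composite DNA element and induces enzymes that make asparagine and serine, transporters that import amino acids, and feedback genes that restrain the response or the growth kinase mTORC1.

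The hairpin's target LOXL2 (ENSG00000134013) was at 85.5 and 84.5 FPKM in the control libraries, and shLOXL2 had 15.2 and 12.1 FPKM, as the labels would have it. It fell at a log2 change of -2.56 ± 0.12 (SE, limma adjusted p = 0.0124), and its adjusted p was 0.157 without shControl replicate 1 and 0.154 without shControl replicate 2. FPKM is a fragment count divided by transcript length and by the number of fragments mapped in that library. The table holds no read counts, and depth is therefore unknown. The FPKM values summed to 1244377 and 1221571 in the shControl libraries and to 1330441 and 1369375 in the shLOXL2 ones. Mitochondrially encoded genes took 18.5% to 20.4% of that sum in shControl and 22.1% to 22.8% in shLOXL2. Of the markers of the line, VIM, CD44, AXL, KRT18, KRT19 and EGFR were all at 30.6 FPKM or more in each library, while ESR1 and PGR, the hormone receptors that triple-negative cells lack, were at most at 0.082 FPKM. ERBB2 was listed with ESR1, PGR and CDH1 as absent from the line, but it stood at 26.1 to 29.8 FPKM. CDH1, an epithelial cadherin that the line has little of, was at 0.339 and 0.837 FPKM in shControl against 1.43 and 1.51 FPKM in shLOXL2, and KRT19 at 172 and 168 against 335 and 352 FPKM. Of 10 fibroblast markers 2 reached a mean of 1 FPKM, COL1A1 and PDGFRB, and the summed level of all 10 was 6.07 and 7.44 FPKM in the control libraries and 12.4 and 10.2 FPKM in the shLOXL2 ones, while POSTN was at most at 0.0092 FPKM and COL1A2 at 0.062 FPKM. The part of these differences and of the mitochondrial share in the results on the 10 genes was not tested. In bulk RNA, fewer cells of a type and less RNA per cell cannot be told apart. Haematopoietic markers summed to 138.5 and 148.9 FPKM with the control hairpin and to 149.9 and 146 FPKM with shLOXL2, almost all of it CD68, with CD3E listed at 0, and endothelial markers summed to at most 1.51 FPKM.

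In control cells the 10 genes spanned a wide range of levels. SHMT2 was highest at 126 ± 0.426 FPKM (SD, n = 2), followed by DDIT4 at 74.1 ± 0.841, PSAT1 at 50.1 ± 2.32, PSPH at 34.6 ± 0.404 and ASNS at 26.3 ± 1.32 FPKM. TRIB3 stood at 18.4 ± 0.0247, PHGDH at 13.7 ± 0.324, SLC7A11 at 9.49 ± 0.0473, CHAC1 at 5.17 ± 0.362 and SESN2 at 4.23 ± 0.116 FPKM. Neighbours in this order did not overlap in the shControl libraries. FPKM is scaled to length so that levels can be set beside each other across genes, but PSPH and PSAT1 may share reads with pseudogenes, which leaves their places uncertain. Among the 16987 genes tested, those averaging 1 FPKM or more over the 4 libraries, SHMT2 lay at the 92.6 percentile of shControl level and SESN2 at the 26.2 percentile. The order was the same in shLOXL2, except that PSPH and PSAT1 then overlapped.

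**Figure D1:**
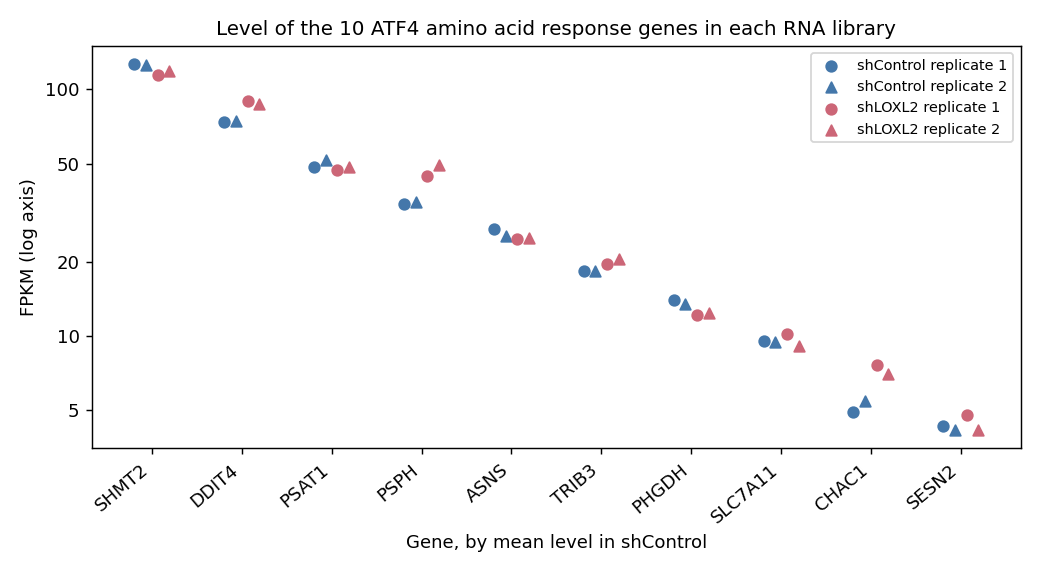
FPKM (log axis) of the 10 genes in each RNA library, ordered by mean level in shControl; blue points are shControl, red points shLOXL2, circles replicate 1 and triangles replicate 2. The red points of DDIT4, PSPH and CHAC1 sit above the blue ones, while those of PSAT1, SLC7A11 and SESN2 overlap with them.

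Of the 10 genes, CHAC1, PSPH and DDIT4 rose in shLOXL2 and 0 fell (limma on log2(FPKM + 1), adjusted p below 0.05). At an unadjusted p below 0.05, 3 were higher and 2 lower, where 35.9% of all genes tested lay below it, 17.6% higher and 18.2% lower. Over all 16987 genes tested, 16.9% passed, 8.35% upwards and 8.54% downwards. The 3 of 10 is above that share but rests on few genes. At a filter of 5 FPKM, which SESN2 did not meet, 2 of the 10 genes rose and 0 fell, while 25.7% of the 12023 genes tested passed. The share of the response genes was then not above that of all genes. The median log2 change of the 10 was 0.037, against -0.0041 over all genes, and 6 of the 10 values were positive. The shLOXL2 and shControl libraries did not overlap for 7 of the 10 genes, 4 of them higher and 3 lower, a share close to the 64.6% of all tested genes whose groups do not overlap. The changes were small: the largest was that of CHAC1, 1.42-fold in mean FPKM. Over the 10 genes the 95% intervals of the log2 change, on the log2(FPKM + 1) scale, reached from -0.27, for PHGDH, to 0.66, for CHAC1. A log2 change of 1 on that scale, which in low genes is more than a 2-fold change in FPKM, lay outside the interval of each of the 10 genes.

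FPKM was also rescaled to the summed level of nuclear genes other than named small RNAs. Identifiers without a symbol were all counted in that sum, so that any small RNAs among them were not removed. After this rescaling 29.5% of all calls were upward, against 49.5% in the reported fit, and the median log2 change of all genes moved to -0.081. Under that scaling PSPH rose, CHAC1 and DDIT4 no longer passed and SHMT2 fell, so that 1 of the 10 genes rose and 1 fell. Fits with any 1 of the 4 libraries left out have 1 residual degree of freedom in place of 2. In them the log2 change was 0.37 to 0.49 for CHAC1, 0.35 to 0.49 for PSPH and 0.24 to 0.27 for DDIT4. It was -0.017 to 0.14 for SESN2 and -0.062 to 0.086 for SLC7A11. The calls of CHAC1, PSPH and DDIT4 did not hold in these fits, in which few of all genes passed, as given at the end. An exact permutation test of 2 libraries against 2 cannot go below a two-sided p of 0.333 for a single gene, so no such test is given.

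**Figure D2:**
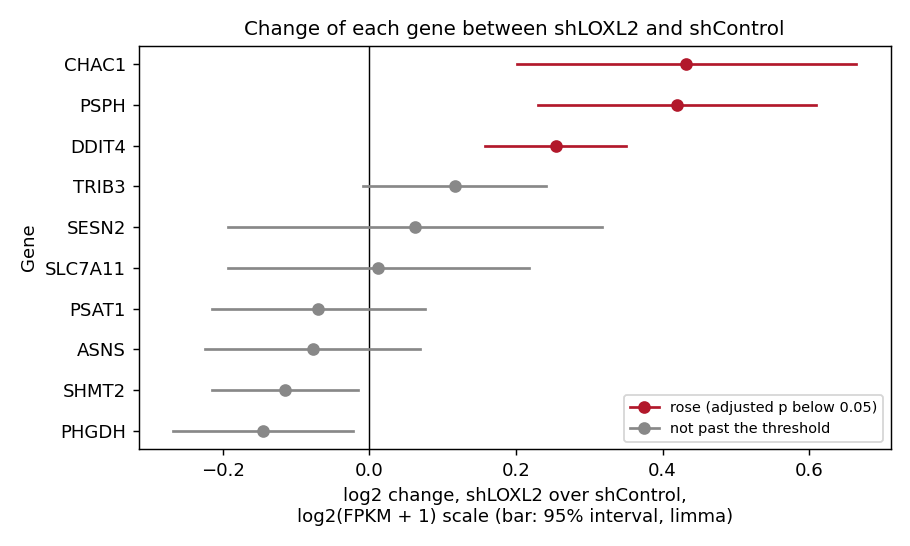
Log2 change (shLOXL2 over shControl, log2(FPKM + 1) scale) of each of the 10 genes, with the 95% interval from limma as a bar; red marks genes past an adjusted p of 0.05. CHAC1, PSPH and DDIT4 lie to the right of 0 with their whole interval, and PHGDH and SHMT2 lie to the left of 0 without passing after adjustment.

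The promoters of ASNS and CHAC1 are shown because both hold a match to core letters of the composite element on which ATF4 and C/EBP factors are known to act, and of the pair CHAC1 alone passed the test. A match is a description of the letters, not evidence of binding. The element was searched as TGATGNAA on both strands, in windows from 250 bases before to 50 bases after each RefSeq start (GRCh38.p14). The table of promoters holds 10 windows for 7 of the 10 genes, namely ASNS, CHAC1, TRIB3, SESN2, PSAT1, PHGDH and DDIT4, and 2 of these windows have a match. Of all 35116 windows 3.62% have a match, and 0.866% have the form TGATGCAA that CHAC1 carries. Capitals mark the match, which lies on the gene's own strand as TGATGAAA at position -68 from the start of ASNS (chr7:97872359-97872658, minus strand). In CHAC1 it lies at position -209 on the opposite strand, so that TTGCATCA is read here (chr15:40953221-40953520, plus strand). Both sequences run 5′ to 3′ in the direction of transcription.
ASNS: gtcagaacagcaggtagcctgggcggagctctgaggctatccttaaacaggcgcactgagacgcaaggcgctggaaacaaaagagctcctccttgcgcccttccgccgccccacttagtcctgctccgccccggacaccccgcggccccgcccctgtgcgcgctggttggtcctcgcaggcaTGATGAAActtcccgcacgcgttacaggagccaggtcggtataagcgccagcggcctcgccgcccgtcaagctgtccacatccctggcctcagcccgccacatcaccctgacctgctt
CHAC1: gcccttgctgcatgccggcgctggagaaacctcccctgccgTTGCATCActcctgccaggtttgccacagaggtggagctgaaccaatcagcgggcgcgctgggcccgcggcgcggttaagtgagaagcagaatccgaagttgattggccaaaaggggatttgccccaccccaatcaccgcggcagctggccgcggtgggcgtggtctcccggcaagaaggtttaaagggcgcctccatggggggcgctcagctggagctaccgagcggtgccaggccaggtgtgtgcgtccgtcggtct
A second ASNS start has a window without a match, as have the windows of TRIB3, SESN2, PSAT1, PHGDH and DDIT4. That says only that these letters are not in those windows, since ATF4 elements can lie further away or differ in sequence.

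ASNS (ENSG00000070669) encodes asparagine synthetase, the enzyme that makes asparagine from aspartate and glutamine and the classical target of the amino acid response. It stood at 27.2 and 25.4 FPKM in the control libraries and at 24.7 and 25.0 FPKM after LOXL2 depletion. The shLOXL2 values were just below the control ones, with a mean difference of -5.47%, and shControl replicate 1 was the highest of the 4. The log2 change was -0.077 ± 0.050 (SE, limma adjusted p = 0.358), with a 95% interval from -0.22 to 0.070. Without shControl replicate 1 the log2 change was -0.028 (limma adjusted p = 0.713).

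Of the 3 enzymes that make serine from a glycolytic intermediate, PSPH passed the test upwards, and PHGDH and PSAT1 had negative log2 changes that did not pass. PHGDH (ENSG00000092621), phosphoglycerate dehydrogenase, takes the first step, and its level was 13.95 and 13.5 FPKM in the control libraries and 12.2 and 12.4 FPKM in the shLOXL2 ones. Both shLOXL2 libraries were lower, with a mean difference of -10.3%, at a log2 change of -0.15 ± 0.042 (SE) that did not pass after adjustment (limma adjusted p = 0.106, unadjusted 0.0318). PSAT1 (ENSG00000135069), phosphoserine aminotransferase, takes the middle step and stood at 48.5 and 51.8 FPKM in the control libraries and 46.9 and 48.5 FPKM after LOXL2 depletion. These values overlap, and the log2 change of PSAT1 was -0.069 ± 0.049 (SE, limma adjusted p = 0.400).

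PSPH (ENSG00000146733), the phosphatase that releases serine in the last step, stood at 34.4 and 34.9 FPKM in the control libraries and 44.3 and 49.2 FPKM in the shLOXL2 ones. Both shLOXL2 libraries were above both controls, and they differed more from each other than the controls did. PSPH rose 1.35-fold, at a log2 change of 0.42 ± 0.064 (SE, limma adjusted p = 0.0371). Relative to PSAT1 in the same library, PSPH was at 0.709 and 0.675 in shControl and at 0.945 and 1.01 in shLOXL2, and relative to PHGDH at 2.46 and 2.59 against 3.63 and 3.96. The call held in 6 of 13 alternatives. The alternatives that lost it include no filter on low levels (limma adjusted p = 0.0786), a variance prior without a trend (0.0571) and each library left out (0.104 to 0.214).

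PSPH and PSAT1 share sequence with pseudogenes, so their reads may be split and both values are uncertain. PSPHP1 stood at 5.03 and 7.31 FPKM in the control libraries and 10.8 and 9.01 FPKM after LOXL2 depletion, higher like PSPH in both libraries, without passing (log2 change 0.62 ± 0.20, SE, limma adjusted p = 0.132). PSAT1P3 stood at 12.1 and 12.4 FPKM in the control libraries and 11.4 and 12.1 FPKM in the shLOXL2 ones, a log2 change of -0.056, close to that of PSAT1. PSAT1P1 and PSAT1P4 were at 2.07 to 2.97 FPKM in all 4 libraries.

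SHMT2 (ENSG00000182199) is the mitochondrial serine hydroxymethyltransferase, which splits serine into glycine and a one-carbon unit on folate. Its level in the control libraries was 126.4 and 125.8 FPKM, and in shLOXL2 it was 114 and 118 FPKM, so both shLOXL2 libraries were lower, with a mean difference of -7.73%. The log2 change of -0.12 ± 0.034 (SE) did not pass after adjustment (limma adjusted p = 0.109, unadjusted 0.0333). SHMT2 fell under the scaling to nuclear long genes, at a log2 change of -0.20 (limma adjusted p = 0.0272). Its cytosolic paralog SHMT1 fell from 12.7 ± 0.453 to 9.50 ± 0.499 FPKM (n = 2, SD; log2 -0.38, limma adjusted p = 0.0376). The ratio of SHMT2 to SHMT1 was 9.71 and 10.2 in shControl and 12.5 and 12.0 in shLOXL2.

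Of the 13 other enzymes and carriers of serine, glycine and one-carbon metabolism tested, 5 fell and 0 rose, with a median log2 change of -0.14 (limma; 0 higher and 7 lower at an unadjusted p below 0.05), and 38.5% of them were called against 16.9% of all genes. MTHFD2, the mitochondrial enzyme that takes up the one-carbon unit made by SHMT2, fell from 35.3 ± 0.115 to 26.6 ± 0.291 FPKM (n = 2, SD; log2 -0.40, limma adjusted p = 0.0166). Thymidylate synthase, TYMS, which is also a gene of S phase, fell from 65.9 ± 1.08 to 39.4 ± 1.88 FPKM (limma adjusted p = 0.0135), and methionine synthase, MTR, from 21.3 ± 0.450 to 11.8 ± 0.446 FPKM (limma adjusted p = 0.0131). The other falls were SHMT1 and, named after its values were seen, the mitochondrial serine transporter SFXN1 (log2 -0.57). Of 17 genes on that list, 4 were below the filter.

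SLC7A11 (ENSG00000151012) is the cystine-glutamate exchanger xCT, which brings in cystine for glutathione. It stood at 9.53 and 9.46 FPKM in the control libraries and 10.1 and 9.05 FPKM after LOXL2 depletion. The shLOXL2 values lie on either side of the controls, and the log2 change was 0.012 ± 0.069 (SE, limma adjusted p = 0.921), with a 95% interval from -0.19 to 0.22. Its direction turned without shLOXL2 replicate 1 (log2 -0.062) and under the scaling to nuclear long genes (-0.066). The antisense gene SLC7A11-AS1 was at 0.253 to 0.364 FPKM, and the labels do not give the strand of the reads.

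SLC3A2, the heavy chain that SLC7A11 and other exchangers need at the membrane, was named here for that role after its values were seen. It stood at 517 and 520 FPKM in the control libraries, against 367 and 331 FPKM in the shLOXL2 ones, and fell at a log2 change of -0.57 ± 0.064 (SE, limma adjusted p = 0.0239). For each unit of SLC7A11 there were 54.3 and 55.0 units of SLC3A2 in shControl and 36.2 and 36.5 in shLOXL2, in FPKM.

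CHAC1 (ENSG00000128965), a cytosolic enzyme that degrades glutathione and is induced through ATF4, stood at 4.91 and 5.42 FPKM in the control libraries and 7.63 and 7.01 FPKM after LOXL2 depletion. Both shLOXL2 libraries were above both controls. CHAC1 rose 1.42-fold in mean FPKM, at a log2 change on the log2(FPKM + 1) scale of 0.43 ± 0.078 (SE, limma adjusted p = 0.0485), which is just inside the threshold. The call held in 2 of 13 alternatives, a pseudocount of 0.1 FPKM (adjusted p = 0.0416) and a robust prior (0.0430). The alternatives that lost it include a pseudocount of 5 FPKM, where the log2 change was 0.28 (adjusted p = 0.0547), quantile normalization (0.0519) and each library left out (0.149 to 0.230).

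The paralog CHAC2, which degrades glutathione more slowly, went the other way, from 12.6 and 13.7 FPKM in shControl to 7.60 and 8.11 FPKM in shLOXL2 (log2 -0.68 ± 0.067, SE, limma adjusted p = 0.0205). CHAC1 was at 0.390 and 0.396 of CHAC2 in the shControl libraries and at 1.004 and 0.864 in the shLOXL2 libraries. Of 13 glutathione and transsulfuration genes tested, 4 fell and 1 rose, 38.5% against 16.9% of all genes. Besides CHAC2 the named falls were glutathione synthetase GSS, from 55.6 ± 0.693 to 41.3 ± 0.275 FPKM, and GCLC, the catalytic subunit of the rate-limiting enzyme, from 30.1 ± 1.49 to 20.5 ± 0.720 FPKM (SD, n = 2). Glutathione reductase, GSR, rose from 22.03 ± 0.295 to 28.6 ± 0.196 FPKM (limma adjusted p = 0.0195).

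**Figure D3:**
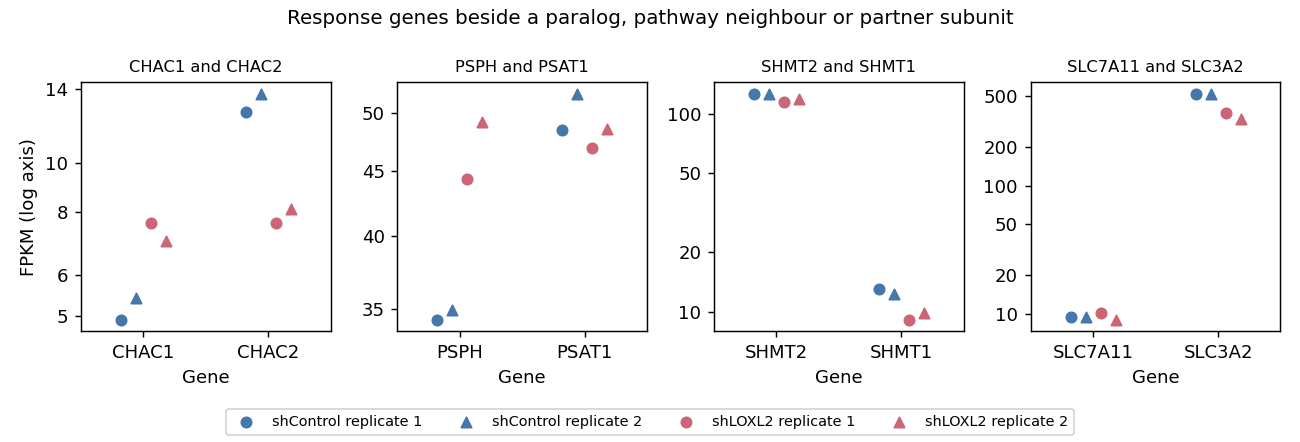
FPKM (log axes, which differ between panels) of 4 response genes in each library beside CHAC2 (paralog), PSAT1 (previous step), SHMT1 (paralog) and SLC3A2 (partner subunit); blue is shControl, red shLOXL2, circles replicate 1 and triangles replicate 2. CHAC1 and CHAC2 approach each other in shLOXL2, PSPH reaches the level of PSAT1, and SLC3A2 is lower while SLC7A11 overlaps.

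DDIT4 (ENSG00000168209), also called REDD1, restrains mTORC1 through the TSC complex and is induced by hypoxia and glucocorticoids as well as by ATF4. It stood at 73.5 and 74.7 FPKM in the control libraries and 89.7 and 87.5 FPKM in the shLOXL2 ones. The 2 groups were well apart relative to the spread within each, and DDIT4 rose 1.20-fold, at a log2 change of 0.25 ± 0.032 (SE, limma adjusted p = 0.0286). It had the smallest p of the 10 genes. The call held in 5 of 13 alternatives, and those that lost it include the scaling to nuclear long genes (log2 0.17, adjusted p = 0.0879), all low genes kept (0.0515), a prior without a trend (0.0566) and each library left out (0.107 to 0.177).

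SESN2 (ENSG00000130766), sestrin 2, is a leucine sensor that holds mTORC1 in check when leucine is scarce. Its level was 4.31 and 4.15 FPKM in the control libraries and 4.77 and 4.17 FPKM after LOXL2 depletion, so that shLOXL2 replicate 2 fell between the controls. The log2 change was 0.062 ± 0.086 (SE, limma adjusted p = 0.649), and it turned to -0.017 without shLOXL2 replicate 1 and to -0.0079 under the scaling to nuclear long genes. The paralogs SESN1, at 6.68 and 6.83 against 5.45 and 6.36 FPKM, and SESN3, at 2.32 and 2.29 against 2.89 and 2.38 FPKM, did not pass either. DDIT4L, the paralog of DDIT4, was below the filter, at 0.668 to 0.821 FPKM.

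TRIB3 (ENSG00000101255), a pseudokinase that binds ATF4 and damps its activity, was at 18.40 and 18.37 FPKM in the control libraries and at 19.5 and 20.5 FPKM in shLOXL2. Both shLOXL2 libraries were higher, by 8.89% on average, at a log2 change of 0.12 ± 0.042 (SE) that did not pass (limma adjusted p = 0.157). Its paralogs TRIB1 and TRIB2 passed. TRIB1 rose from 11.1 and 11.8 to 17.1 and 17.1 FPKM (log2 0.54, limma adjusted p = 0.0179). TRIB2 rose from 18.1 and 17.7 to 31.7 and 27.3 FPKM (log2 0.69, limma adjusted p = 0.0277). Beside the 10, 15 genes of a list labelled mTORC1 restraint and stress feedback were tested. The label does not give the direction in which each gene acts on mTORC1, so a rise is not read here as more restraint. Of these 15, TRIB1, TRIB2 and folliculin, FLCN (26.6 ± 0.485 to 36.1 ± 0.643 FPKM, SD, n = 2), rose and 0 fell. At an unadjusted p below 0.05 in limma, 6 were higher and 1 lower. The called share of 20% is close to the 16.9% of all genes.

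**Figure D4:**
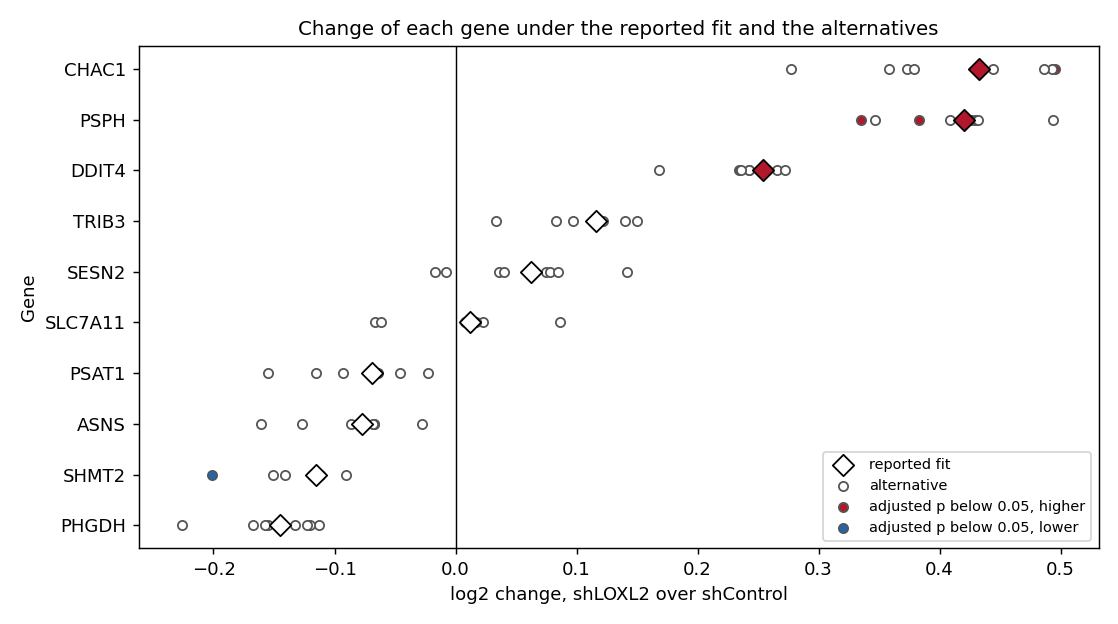
Log2 change of each of the 10 genes in the reported fit (diamonds) and under the alternatives (circles); filled red or blue marks an adjusted p below 0.05. CHAC1, PSPH and DDIT4 stay right of 0 throughout, SESN2 and SLC7A11 fall on both sides of 0, and SHMT2 passes in a single alternative, toward lower values.

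Upstream of the 10 genes, ATF4 (ENSG00000128272) mRNA stood at 128 and 130 FPKM in the control libraries and 132 and 136 FPKM in the shLOXL2 ones, a log2 change of 0.054 ± 0.032 (SE, limma adjusted p = 0.321) that turned to -0.032 under the scaling to nuclear long genes. Its pseudogenes ATF4P3 and ATF4P4 were at 4.73 to 6.52 FPKM, so a part of the ATF4 reads may lie there. Of 10 tested transcription factors of the ATF4 group, ATF4 included, 2 fell and 0 rose (limma; 2 higher and 6 lower at an unadjusted p below 0.05), at a median log2 change of -0.25. That share, 20%, is near the 16.9% of all genes. DDIT3, the proapoptotic factor CHOP and itself an ATF4 target, fell from 31.9 and 34.6 to 20.8 and 20.4 FPKM (log2 -0.66 ± 0.055, SE, limma adjusted p = 0.0167). JDP2 fell from 3.81 and 4.18 to 2.57 and 2.30 FPKM (limma adjusted p = 0.0452). DDIT3 fell in the same libraries in which CHAC1 and DDIT4 rose.

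Of 14 kinases, phosphatase subunits and translation factors around eIF2alpha, 1 rose and 0 fell (limma; 2 higher and 1 lower at an unadjusted p below 0.05), 7.14% against 16.9% of all genes. The riser was EIF2AK1, the kinase HRI, from 64.6 ± 1.55 to 78.0 ± 0.688 FPKM (n = 2, SD; limma adjusted p = 0.0287). EIF2AK4, the amino acid sensor GCN2, named for its role after its values were seen, stood at 20.6 and 20.3 FPKM in the control libraries and 20.1 and 19.96 FPKM after LOXL2 depletion.

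Amino acid transporters were the list with the largest share of calls, 47.1% against 16.9% of all genes. Of 17 tested, 6 fell and 2 rose, at a median log2 change of -0.30. All 10 other lists were chosen with earlier results of these data known, so their shares are not independent of the data. The glutamine carriers SLC1A5, from 111 ± 5.05 to 59.9 ± 2.12 FPKM, and SLC38A1, from 59.1 ± 1.83 to 37.5 ± 1.195 FPKM, fell, as did the cationic carrier SLC7A2, from 7.62 ± 0.474 to 3.83 ± 0.198 FPKM (SD, n = 2). SLC38A2, a carrier that the amino acid response induces, rose from 204 ± 9.68 to 247 ± 4.66 FPKM, and the glycine carrier SLC6A9 from 6.39 ± 0.574 to 10.2 ± 0.800 FPKM. Under the scaling to nuclear long genes the rises of SLC38A2 (limma adjusted p = 0.117), SLC6A9 (0.0607) and EIF2AK1 (0.0674) no longer passed.

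Among 24 aminoacyl-tRNA synthetases and associated factors, many of which ATF4 induces, 3 rose, CARS1 (log2 0.29), EPRS1 (0.23) and YARS1 (0.21), and AIMP1 fell (log2 -0.28), at a median of 0.0027. The share called, 16.7%, is that of all genes to within 1 percentage point. Of 14 genes of proline, aspartate, glutamate and asparagine metabolism, the proline enzyme PYCR1 rose (log2 0.25) and the mitochondrial aspartate aminotransferase GOT2 fell (-0.63), a called share of 14.3%. Of 15 other stress and ATF4-linked genes, 5 rose and 1 fell, a called share of 40%. The 3 with the smallest p among those that rose were the cyclin CCNG2 (log2 0.80), the death receptor gene TNFRSF10B (0.48) and VEGFA (0.38), and the cell cycle inhibitor CDKN1A fell (-0.48). Of 17 folding genes of the ATF6 and XBP1 arms, ATF6 itself fell (log2 -0.37) and 0 rose (limma; 2 higher and 3 lower at an unadjusted p below 0.05), a called share of 5.88%. In all, 16 of these 152 other genes rose and 21 fell, or 24.3% against 16.9% of all genes. At a filter of 5 FPKM, 21 of the other listed genes rose and 21 fell, while 25.7% of the 12023 genes tested passed. The share of all genes thus depends on the level at which genes are kept. None of these lists was set against genes of like level. Under the scaling to nuclear long genes the rises of EPRS1 (limma adjusted p = 0.0682), YARS1 (0.0641) and VEGFA (0.0574) no longer passed. With any 1 library left out, the calls among the 152 did not hold, in fits where few of all genes passed.

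**Figure D5:**
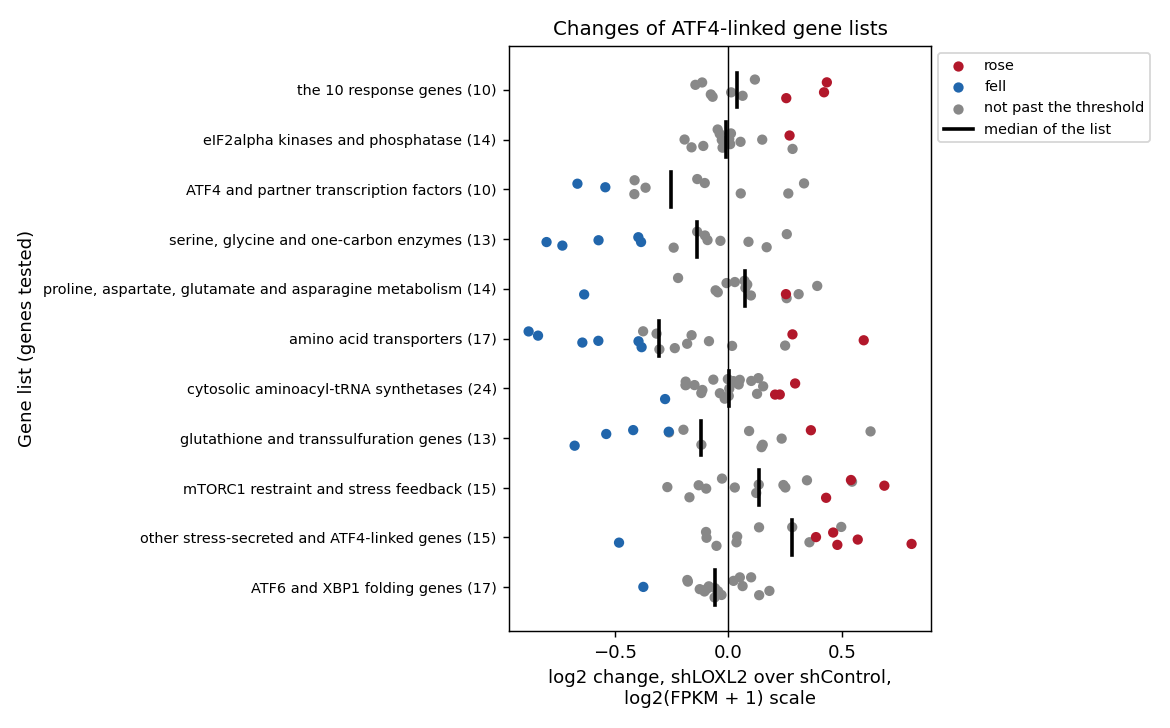
Log2 change (shLOXL2 over shControl) of each tested gene, by list, with the number tested in brackets; red rose, blue fell, grey did not pass, and the black bar is the median of the list. The 10 response genes spread from -0.15 to 0.43 around a median near 0, while amino acid transporters and the ATF4 group of factors have medians of -0.30 and -0.25.

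The element TGATGNAA was found in a promoter window of 23 of 135 other listed genes present in the promoter table, or 17%. Of all genes in it, 4.46% had a match. By window the shares were 12.2% of 205 and 3.62% of 35116. The lists were chosen for links to the ATF4 response, so the higher share is not a result of these libraries. Of the 23 genes, 22 were tested, of which 1 rose and 5 fell, at a median log2 change of -0.098. That is 27.3%, near the 24.3% of all 152 other listed genes tested, against 16.9% of all genes tested. ASNS and CHAC1 with the same element had log2 changes of -0.077 and 0.43.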

How the data were processed

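The authors deposited 1 table of FPKM values with a column per RNA library. Per the submitters' processing notes, the tools were Bowtie and Cufflinks, with no version stated, and the build was GRCh37; the gene annotation and strand setting are not given in the sources used here. Symbols were assigned by Ensembl identifier for 39694 of 63657 genes, including all 180 genes listed. The 10 genes and the 10 other lists, with the rule for naming genes in them (up to 3 with the smallest p in each direction), were chosen with earlier results of these data known.

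Genes averaging at least 1 FPKM over the 4 libraries (16987, all 10 genes among them) were tested as log2(FPKM + 1) in limma 3.58.1 (R 4.3.3), with an intensity trend, two-sided, Benjamini-Hochberg adjusted over all of them, threshold 0.05. Log2 changes on this scale understate those of low genes. The fit was tested on simulated data. Alternatives changed the pseudocount (0.1, 5), filter (none, 5 FPKM), scaling, prior, replicate block and libraries. Peak lists were not used, as no GRCh37 annotation was used here to place them at genes. Promoters are from RefSeq, GRCh38.p14. Figures were drawn in Python 3.11.15.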

Additional observations from a re-analysis of the deposited data

How the results depend on the processing

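The count of response genes that rose, 3 in the reported fit, was 0 without a filter on low values, 0 with a variance prior without a trend and 1 when rescaled to the nuclear long-gene sum, where 1 fell; at an unadjusted p below 0.05 limma still had 3 higher in each of these. In the other listed genes 6 rose and 13 fell without a filter, and 9 rose and 17 fell with a prior without a trend. When rescaled, 10 of them rose and 32 fell. Of all genes, 3.16% passed without a filter (1143 of the 36224 then tested), 11.5% with a prior without a trend and 18.9% when rescaled. In the reported fit 16.9% of all genes passed. With the replicate number as a block, 0 response genes, 0 other listed genes and 0 of all genes passed in limma (5519 of all genes and 3 response genes at an unadjusted p below 0.05), the adjusted p being 0.0784 for PSPH, 0.0862 for DDIT4 and 0.117 for CHAC1; the labels do not say that a number marks a shared culture, and deviations of same-numbered libraries correlated at -0.00127. With 1 library left out, 0 response genes and 0 other listed genes passed, and 193 to 294 of all genes. Direction turned for SESN2 (-0.0079) and SLC7A11 (-0.066) and for ATF4 (-0.032) when rescaled, and for SESN2 (-0.017) and SLC7A11 (-0.062) without shLOXL2 replicate 1, against 0.14 and 0.086 without shLOXL2 replicate 2. The other response genes kept their direction in all 13 alternatives; SESN2 was not tested at a filter of 5 FPKM. The cause of these differences was not tested. The fits with a block or a library left out have 1 residual degree of freedom in place of 2. Depth is unknown, so counting error could not be given.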
